A study of Mus musculus with 6 samples.

Results

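Genes of the TGF-beta and activin pathway were described across 6 mouse breast tumors, with the ligand genes Tgfb1, Tgfb2, Tgfb3 and Inhba, the latency gene Ltbp1, the receptor genes Tgfbr1, Tgfbr2 and Tgfbr3, and the Smad genes Smad3 and Smad7. They were chosen by name as pathway genes, with earlier results of these data known, and matched by NCBI Gene identifier. They make up 10 of the 18460 genes listed in at least 1 tumor. All 10 were listed in all 6 tumors, and all 10 passed the filter on low counts and were tested. RNA was sequenced from whole tumors of Balb/c mice, 3 in a TEST and 3 in a CONTROL group. The TEST tumors came from K14-TSLPtg;PyMTtg;Rag1KO mice, and the CONTROL tumors from PyMTtg;Rag1KO mice. Both groups carried the PyMTtg oncogene, which gives rise to spontaneous mammary tumors, and the Rag1KO allele, which leaves a mouse without mature T and B cells of its own. Mice of both groups received CD4+ T cells at 4 wk of age, and their tumors were taken at the endpoint of 18 to 20 wk. The K14-TSLPtg transgene was the labelled difference, and it drives thymic stromal lymphopoietin (TSLP), an epithelial cytokine, from a keratinocyte promoter. The comparison asks which transcripts of the tumor differ when transferred CD4+ T cells act in mice that overexpress TSLP. Same-numbered tumors of the groups came from different mice, and p-values measure the spread between these tumors.

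TGF-beta ligands are made as precursors and leave the cell bound to their own propeptide and a latent TGF-beta binding protein, from which they must be released to act. A released ligand brings together type II and type I receptor kinases, which phosphorylate Smad2 and Smad3 so that these enter the nucleus with Smad4. In mammary epithelium the pathway is known for holding back cell growth and, in carcinoma cells, for driving epithelial to mesenchymal transition.

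Total expected counts were 9249064, 8908390 and 9090055 for CONTROL and 8373390, 8571403 and 9449565 for TEST. Here and throughout, values by tumor follow the order of replicates 1, 2 and 3. The labels were looked at before the pathway. Tslp had 2, 2 and 3 counts in the CONTROL tumors and 12, 7 and 2 in the TEST tumors, so TEST replicate 3 lay at the CONTROL level. These counts were too low for Tslp to be tested, and they do not set the library labelled TEST replicate 3 apart from CONTROL. Krt14, the gene whose promoter drives the transgene, was at 8.72, 35.5 and 62.3 FPKM in CONTROL and 27.1, 67.4 and 69.8 in TEST tumors, and so was not low in TEST replicate 3. Whether the transgene's transcript is counted under Tslp was not tested. Without TEST replicate 3, 9 of the 10 pathway genes were lower in TEST, as with all 6 tumors, and 3 were so at an unadjusted p under 0.05, against 5 with all tumors. Rag1 had 27, 4 and 10 counts in the CONTROL tumors against 6, 12 and 9 in the TEST tumors. Where these reads lie in the gene is not known here, so they do not check the knockout either. Rag1 also shares 80 exonic bases with B230118H07Rik on the same strand. As labelled for breast tumor tissue, the luminal keratin Krt18 was abundant in all 6 tumors, from 335 to 1206 FPKM (fragments scaled for gene length and sequencing depth). Cd3g, which encodes a CD3 chain of the T cell receptor complex, had 0 counts in CONTROL replicate 3 and was low in the other tumors. Summed FPKM of 5 T cell genes ran from 2.78 to 5.67.

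Most of the 10 genes, chosen with earlier results of these data known, were lower in the TEST tumors. With log2 fold changes from edgeR, 9 of 10 were lower and only Tgfbr1 was higher, and the median was −0.89 against 0.02 over all 13706 tested genes. In edgeR (quasi-likelihood, Benjamini-Hochberg), none of the 10 reached an adjusted p of 0.05, and neither did any tested gene (0 of 13706, 0%). At an unadjusted p under 0.05, 5 of the 10 were lower, Tgfb2, Tgfb3, Ltbp1, Tgfbr3 and Smad7, and 0 were higher, where the shares of all tested genes were 5.26% lower and 3.15% higher. The groups did not overlap in CPM (counts scaled to library size, with TMM factors) for 3 of the 10, Tgfb3, Ltbp1 and Smad3, all lower in TEST, against 5.86% of all tested genes that were lower and 6.12% that were higher without overlap. DESeq2 called 313 of the 13706 genes, among them Ltbp1, and limma on log2(FPKM + 1) called 1 gene and none of the 10. On simulated data, a larger share of the genes called by DESeq2 than of those called by edgeR was false. The simulation took the spread of each gene from edgeR, and DESeq2 also found more of the true changes. It therefore does not decide between the calls in these tumors. In whole tumors, fewer cells of a type and less RNA per cell cannot be told apart. Exact permutation tests of 3 tumors against 3 cannot give a p under 0.1.

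**Figure D1:**
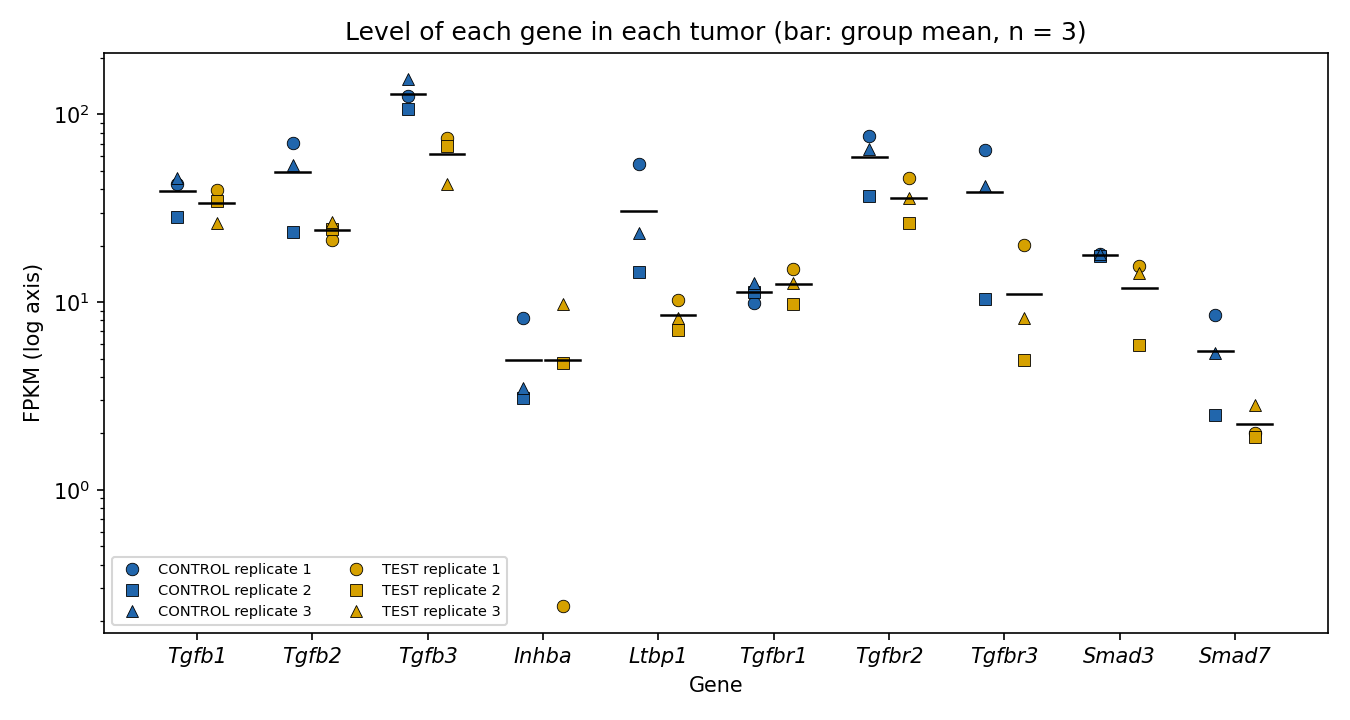
FPKM of each gene on a log axis in the 3 CONTROL (blue) and 3 TEST (yellow) tumors, with the replicate number given by the shape of the point and the group mean by a bar. Tgfb3, Ltbp1 and Smad3 are the genes whose groups do not overlap, and the lowest point, 0.24 FPKM, is Inhba in TEST replicate 1.

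Tgfb3 was the ligand with the highest level. In GRCm38, the build of all positions here, it is on the minus strand of chromosome 12 from 86056743 to 86079041, and its product acts in palate and mammary development. Tgfb3 FPKM was 125, 107 and 154 in CONTROL tumors against 74.6, 67.6 and 42.6 in TEST tumors. Every TEST tumor was below every CONTROL tumor, with TEST replicate 3 the lowest. The group means were 129 ± 23.7 in CONTROL and 61.6 ± 16.8 in TEST (SD, n = 3 each). On the log2 scale the fold change was −1.05 (SE 0.31, adjusted p = 0.454, edgeR quasi-likelihood with Benjamini-Hochberg adjustment). The exact two-sided permutation p was 0.1, the smallest this design allows.

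Tgfb2, the ligand known for its low affinity for Tgfbr2 without the co-receptor, lies on chromosome 1 from 186622787 to 186709697 on the minus strand. Its FPKM was 70.1, 23.7 and 53.6 in the CONTROL tumors and 21.6, 24.5 and 26.7 in the TEST tumors. CONTROL replicates 1 and 3 were high, and CONTROL replicate 2 lay among the TEST tumors, which differed little from each other. Its log2 fold change was −1.03 (SE 0.42, adjusted p = 0.558, edgeR quasi-likelihood with Benjamini-Hochberg adjustment), and −0.62 without CONTROL replicate 1. The promoter of Tgfb2 is shown because it is the ligand promoter in which letters of the Smad binding element were found. The window runs from 250 to 50 bases before the RefSeq start, chr1:186706039-186706239 on the minus strand of GRCm38. That start, at 186705989, lies inside the gene span given above, and so does the window. The window is written 5′ to 3′ with CAGAC matches in capitals, the outer at 221 and the inner at 204 bases before the start.
Tgfb2: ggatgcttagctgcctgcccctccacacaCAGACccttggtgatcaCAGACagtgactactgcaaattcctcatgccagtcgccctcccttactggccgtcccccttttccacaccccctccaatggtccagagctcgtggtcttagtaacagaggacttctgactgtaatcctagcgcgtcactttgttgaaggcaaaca

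Tgfb1, the ligand most often studied in immune regulation, had the log2 fold change nearest 0 of the TGF-beta ligands. Its gene lies on chromosome 7 from 25687002 to 25705077 on the plus strand. FPKM of Tgfb1 was 42.7, 28.4 and 45.8 in CONTROL and 39.6, 34.7 and 26.5 in TEST tumors. CONTROL replicates 1 and 3 were above all TEST tumors, and the groups overlapped through CONTROL replicate 2, which was above TEST replicate 3 alone. The log2 fold change was −0.21 (SE 0.29) at an adjusted p of 0.854 (edgeR quasi-likelihood, Benjamini-Hochberg). It ranged from −0.41 without CONTROL replicate 2 to −0.05 without TEST replicate 3.

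The makeup of the ligand transcripts was read per length. The FPKM of Tgfb1, Tgfb2 and Tgfb3 summed to 238, 159 and 253 in the CONTROL tumors and to 136, 127 and 95.7 in the TEST tumors. Tgfb1 made up 18.0%, 17.8% and 18.1% of this sum in CONTROL against 29.2%, 27.4% and 27.6% in TEST tumors. The share of Tgfb1 was higher in every TEST tumor than in any CONTROL tumor, CONTROL replicate 2 included. Tgfb3 held from 52.5% to 67.3% in CONTROL and from 44.5% to 54.9% in TEST, and Tgfb2 from 14.9% to 29.5% and from 15.9% to 27.9%, both with overlap. These shares were chosen after the values were seen and are given as a description, without a test.

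**Figure D2:**
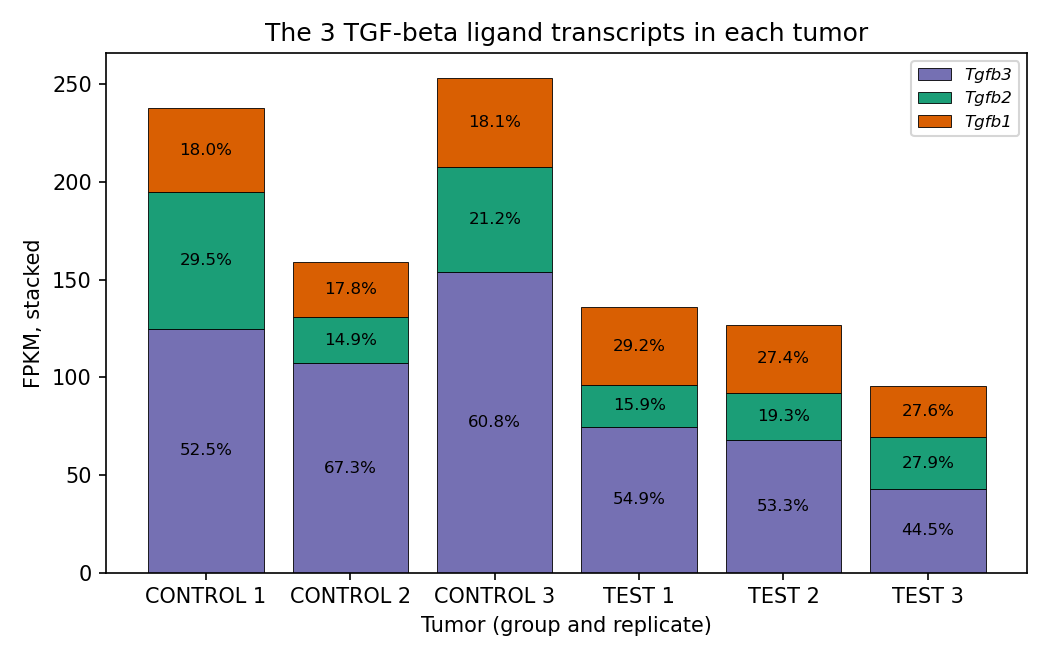
Stacked FPKM of Tgfb3, Tgfb2 and Tgfb1 in each tumor, with the percent of the sum printed in each block. The whole bar runs from 159 to 253 in CONTROL and from 95.7 to 136 in TEST, and the Tgfb1 share from 17.8% to 18.1% and from 27.4% to 29.2%.

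Inhba encodes the subunit that forms activin A and signals through other receptors to the same Smads. It lies on chromosome 13 from 16004256 to 16031609 on the plus strand. Inhba FPKM was 8.26, 3.10 and 3.48 in the CONTROL tumors and 0.24, 4.74 and 9.74 in the TEST tumors. TEST replicate 1 was the lowest and TEST replicate 3 the highest of all 6 tumors, so the TEST group spanned the whole CONTROL range. The low value rests on 3 counts (95% Poisson interval 0.619 to 8.77, for counting error only), against 42 to 140 counts in the other tumors. Its log2 fold change was −0.02 (SE 1.00, adjusted p = 0.998, edgeR quasi-likelihood with Benjamini-Hochberg adjustment), and it was 0.65 without CONTROL replicate 1 and 0.55 without TEST replicate 1.

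Inhba had the widest spread of the 10 over the 6 tumors, with an SD of 1.52 in log2(CPM + 0.5). The tested genes with the most similar profile were sought by the mean absolute difference from Inhba in log2(CPM + 0.5), each gene centred on its mean over 6 tumors, among 13705 genes. The closest were Ms4a4c at 0.252, Il1b at 0.392, Pinc at 0.398, Ccl12 at 0.439 and Gng11 at 0.463. In TEST replicate 1, where Inhba had 3 counts, Ms4a4c (0.07 FPKM) and Pinc (0.15) were low too, which limits this order. Il1b encodes the cytokine interleukin-1 beta, and its FPKM was 24.0, 4.01 and 9.88 in CONTROL against 0.73, 8.12 and 13.3 in TEST tumors. All 5 were lowest in TEST replicate 1, as was Inhba, which is no separate result because they were chosen by likeness to Inhba. Among the other 9 genes of the list the closest to Inhba was Tgfb2, at a difference of 0.953 and place 1659 of those genes.

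Ltbp1 encodes the latent TGF-beta binding protein that ties the latent ligand to the extracellular matrix. Its gene lies on chromosome 17 from 75005480 to 75392512 on the plus strand. FPKM of Ltbp1 was 54.3, 14.6 and 23.3 in CONTROL tumors against 10.3, 7.11 and 8.28 in TEST tumors. All 3 TEST tumors were below all 3 CONTROL tumors, and CONTROL replicate 1 stood far above the rest. The means were 30.7 ± 20.9 in CONTROL and 8.57 ± 1.62 in TEST (SD, n = 3 each). The log2 fold change of −1.88 (SE 0.51) corresponds to 3.68-fold higher expression in CONTROL, at an adjusted p of 0.421 (edgeR quasi-likelihood, Benjamini-Hochberg). Without CONTROL replicate 1 the log2 fold change was −1.13. DESeq2 gave Ltbp1 an adjusted p of 0.0199, and over all 14 alternatives its adjusted p ran from 0.0199 to 0.996. The files list 2 transcripts for the gene, which begin at separate starts. The upstream start gives the longer protein, and the files' counts do not separate the transcripts. The promoters of both starts are shown since Ltbp1 had the lowest unadjusted p of the 10 and was among the genes without overlap. Each window holds the bases from 250 to 50 before its RefSeq start on the plus strand of GRCm38, chr17:75005279-75005479 for the upstream and chr17:75178531-75178731 for the downstream start, 5′ to 3′, with matches to the Smad letters (GTCTG, the reverse complement of CAGAC) and to the cyclic AMP response element (TGACGTCA) in capitals.
Ltbp1 upstream: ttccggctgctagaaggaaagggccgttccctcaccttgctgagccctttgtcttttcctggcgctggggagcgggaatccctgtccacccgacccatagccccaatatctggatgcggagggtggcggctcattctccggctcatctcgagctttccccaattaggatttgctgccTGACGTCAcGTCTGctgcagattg
Ltbp1 downstream: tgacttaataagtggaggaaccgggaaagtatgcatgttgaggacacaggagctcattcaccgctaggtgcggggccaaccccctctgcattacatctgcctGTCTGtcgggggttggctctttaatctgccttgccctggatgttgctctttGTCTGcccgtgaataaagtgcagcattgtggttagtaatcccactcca

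In the upstream window TGACGTCA began 73 bases and GTCTG 64 bases before the start, and in the downstream window GTCTG began at 148 and 97. RefSeq promoter windows were read for 7 of the 10 genes, in 9 windows of 201 bases. None was matched for Tgfb3 and Tgfbr3. Promoters of these genes on chromosome 18 were not read, which left out Smad7. On either strand, CAGAC was found in 5 of the 9 windows, against 36.0% of 32851 promoters. TGACGTCA was found in 1 of 9, against 0.849% of promoters, and TGANTCA, the letters of the AP-1 element, in 0 of 9, against 5.59%. A match of this kind describes letters and is no sign of binding.

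Neither signalling receptor gene passed the test. Tgfbr2, the type II receptor that binds ligand, lies on chromosome 9 from 116087695 to 116175363 on the minus strand. Its FPKM was 77.0, 36.6 and 65.5 in CONTROL and 45.9, 26.4 and 35.9 in TEST tumors. CONTROL replicate 2 lay between TEST replicates 1 and 3 and the other CONTROL tumors were above all TEST tumors. A log2 fold change of −0.74 was fitted (SE 0.36, adjusted p = 0.653, edgeR quasi-likelihood with Benjamini-Hochberg adjustment). This value ranged from −1.01 without CONTROL replicate 2 to −0.46 without CONTROL replicate 1.

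Tgfbr1, the type I receptor kinase that phosphorylates Smads, lies on chromosome 4 from 47353222 to 47414926 on the plus strand. FPKM of Tgfbr1 was 9.89, 11.3 and 12.7 in CONTROL and 14.9, 9.84 and 12.6 in TEST tumors. The groups overlapped, and the highest of the 6 tumors was 1.52 times the lowest, the narrowest range of the 10 genes. Its log2 fold change was 0.15 (SE 0.23, adjusted p = 0.876, edgeR quasi-likelihood with Benjamini-Hochberg adjustment). It ranged from 0.03 without TEST replicate 1 to 0.27 without TEST replicate 2. The ratio of Tgfbr2 to Tgfbr1 FPKM was 7.79, 3.25 and 5.16 in the CONTROL tumors and 3.07, 2.68 and 2.85 in the TEST tumors, a description without a test that was chosen after the values were seen.

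Tgfbr3 encodes betaglycan, the co-receptor that presents Tgfb2 protein to the type II receptor. The gene lies on chromosome 5 from 107106567 to 107289629 on the minus strand. Tgfbr3 FPKM was 64.3, 10.4 and 41.6 in CONTROL tumors against 20.1, 4.93 and 8.24 in TEST tumors. CONTROL replicates 1 and 3 were high, TEST replicate 1 was above CONTROL replicate 2, and the highest tumor was 13.0 times the lowest. The log2 fold change was −1.86 (SE 0.73, adjusted p = 0.551, edgeR quasi-likelihood with Benjamini-Hochberg adjustment), and ranged from −2.56 without TEST replicate 1 to −1.20 without CONTROL replicate 1.

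Smad3, the receptor-activated Smad that binds DNA directly, had the most even CONTROL values. It lies on chromosome 9 from 63646766 to 63757994 on the minus strand. Its FPKM was 18.1, 17.7 and 18.0 in CONTROL and 15.5, 5.91 and 14.3 in TEST tumors. Every TEST tumor was lower than every CONTROL tumor, and TEST replicate 2 was far below the others. Means were 17.9 ± 0.238 in CONTROL and 11.9 ± 5.22 in TEST (SD, n = 3 each). Its log2 fold change was −0.60 (SE 0.35, adjusted p = 0.700, edgeR quasi-likelihood with Benjamini-Hochberg adjustment), and −0.29 without TEST replicate 2.

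Smad7, the inhibitory Smad that is induced by the pathway and blocks its type I receptor, lies on chromosome 18 from 75367365 to 75395935 on the plus strand. FPKM of Smad7 was 8.59, 2.50 and 5.38 in CONTROL and 2.00, 1.92 and 2.83 in TEST tumors. CONTROL replicates 1 and 3 were above all TEST tumors, while CONTROL replicate 2 was below TEST replicate 3. Its log2 fold change was −1.31 (SE 0.49, adjusted p = 0.529, edgeR quasi-likelihood with Benjamini-Hochberg adjustment), and −0.76 without CONTROL replicate 1. Some gene models share exonic bases with others in the annotation, Tgfb2 with Gm29491 (124 bases), Tgfb3 with Gm37804 (163) and Gm48008 (257), all on the opposite strand, and Tgfbr3 with Gm43422 (297) on the same strand. Whether counting used strand is not given in the sources used here, so reads of these stretches are uncertain for Tgfb2, Tgfb3 and Tgfbr3.

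**Figure D3:**
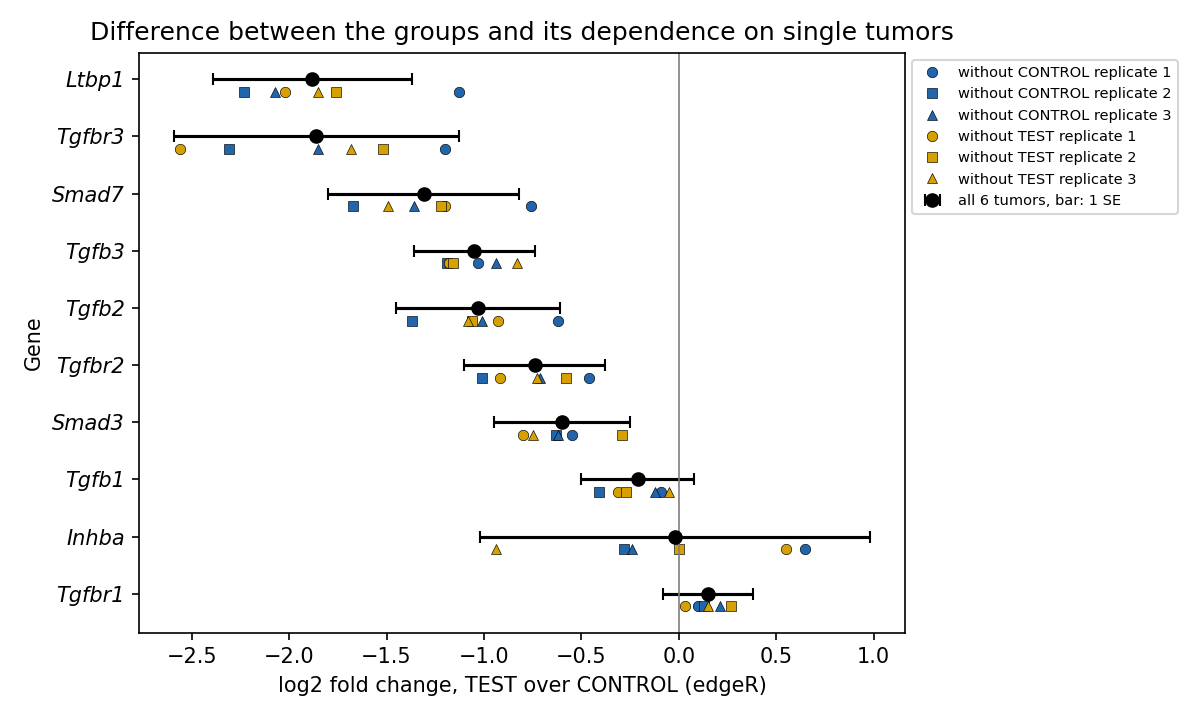
Log2 fold change of each gene, TEST over CONTROL, from edgeR with all 6 tumors (black, bar 1 SE) and with each tumor left out (colored points below). Ltbp1 moves from −1.88 to −1.13 without CONTROL replicate 1, Smad3 from −0.60 to −0.29 without TEST replicate 2, and Inhba lies on either side of 0.

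By mean FPKM over the 6 tumors, the order of levels was Tgfb3 (95.1), Tgfbr2 (47.9), Tgfb2 (36.7), Tgfb1 (36.3), Tgfbr3 (24.9), Ltbp1 (19.6), Smad3 (14.9), Tgfbr1 (11.9), Inhba (4.93) and Smad7 (3.87). The order was not the same in each group. Mean FPKM in CONTROL was 49.1 for Tgfb2, 39.0 for Tgfb1, 38.8 for Tgfbr3, 30.7 for Ltbp1, 17.9 for Smad3 and 11.3 for Tgfbr1. In TEST, Tgfb1 (33.6) was above Tgfb2 (24.2), and Tgfbr1 (12.5) and Smad3 (11.9) were above Tgfbr3 (11.1) and Ltbp1 (8.57), while Tgfb3 (129 in CONTROL, 61.6 in TEST) and Tgfbr2 (59.7 and 36.0) led in both groups. Smad7 was above Inhba in CONTROL (5.49 and 4.95) and below it in TEST (2.25 and 4.91). Over all 6 tumors, neighbours in the pooled order overlapped in their ranges over tumors, except Tgfbr1 and Inhba. Within tumors, Tgfb3 was above Tgfbr2, and Tgfbr2 above Tgfb2, in 6 of 6, while Tgfb2 was above Tgfb1 in 3 of 6. FPKM of Ltbp1 also depends on the listed gene length, which ran from 6915 to 7444 bases between tumors.

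The tumors in which the genes were highest and lowest were counted next. On the CPM scale, CONTROL replicate 1 was the highest tumor for 7 of the 10 genes, and it was the highest for 21.2% of all tested genes. This library also stood apart in other values, which were looked up after the pattern was seen. Its 10 most abundant genes held 10.1% of its counts, against 5.9% to 7.81% in the other tumors. The basal transcription factor gene Trp63 was at 99.3 FPKM in it and from 1.61 to 15.8 in the others, while the basal keratin genes Krt5 (3.66 FPKM) and Krt14 (8.72) were at their lowest of the 6 tumors. The part of these differences in the values of the 10 genes was not tested. The lowest tumor was TEST replicate 2 for 5 genes, TEST replicate 1 for 3 and TEST replicate 3 for 2, where the shares of all tested genes were 25.4%, 17.7% and 12.2%. TEST replicate 2 was thus also the most frequent lowest tumor over all tested genes. It was the most frequent highest tumor over all tested genes as well (25.7%), and the highest for 0 of the 10. No CONTROL tumor was the lowest for any of the 10, where the shares of all tested genes were 21.6%, 13.3% and 9.72%. The mean of the 10 genes in log2(CPM + 0.5), each centred on its mean over 6 tumors, was 1.00, −0.23 and 0.50 in CONTROL against −0.44, −0.57 and −0.26 in TEST tumors. CONTROL replicate 2 was thus next to the TEST tumors, with 2 of the 10 genes (Tgfb3 and Smad3) above their own mean, against 9 of 10 in each other CONTROL tumor. This tumor was singled out from the same values, so the effect of leaving it out is no separate result. Leaving out any other tumor gave 3 or 4 of the 10 genes without overlap. When CONTROL replicate 2 was left out, groups did not overlap for 8 of the 10 genes, all but Inhba and Tgfbr1. The shares of all tested genes were 18.8% lower and 16.2% higher. The number lower at an unadjusted p under 0.05 was then 6, beside 9.06% of all tested genes. It was 2 without CONTROL replicate 1 (2.59% of all), 2 without CONTROL replicate 3 (3.07%), 3 without TEST replicate 1 (4.73%), 2 without TEST replicate 2 (4.74%) and 3 without TEST replicate 3 (4.15%), so the share of all tested genes was also highest without CONTROL replicate 2 and lowest without CONTROL replicate 1. Without CONTROL replicate 2, edgeR called 182 genes and none of the 10 at an adjusted p of 0.05.

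**Figure D4:**
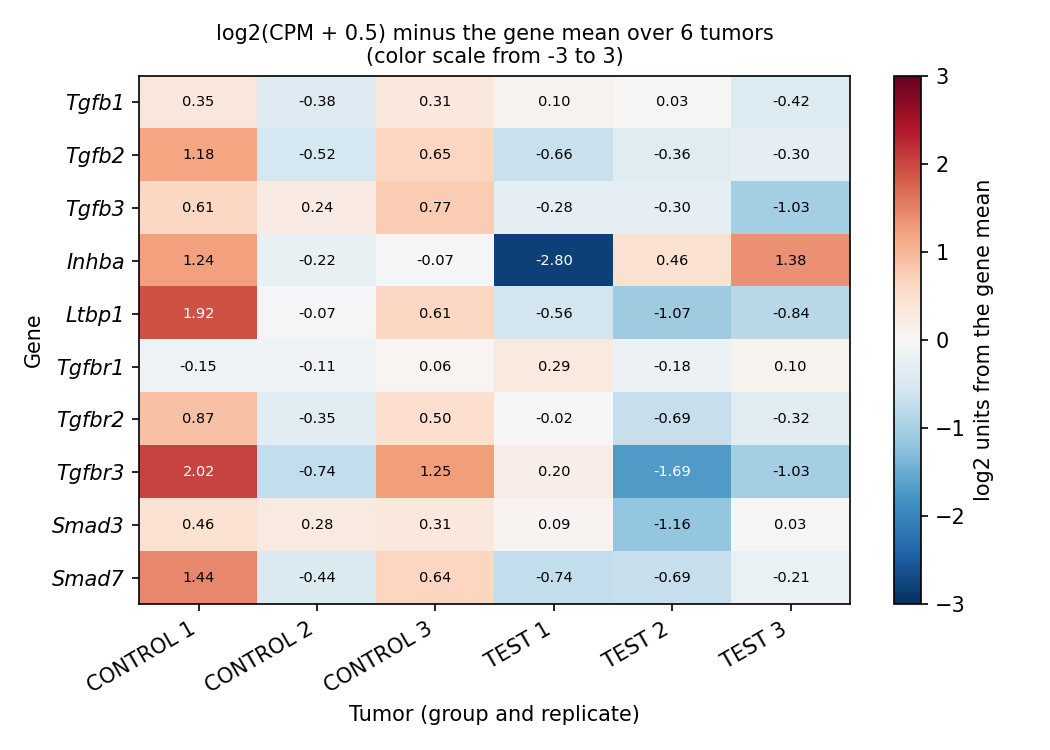
Heat map of log2(CPM + 0.5) for each gene (rows) and tumor (columns), as the difference from the gene's mean over 6 tumors, with the value printed in each cell. CONTROL replicates 1 and 3 are mostly above the mean, CONTROL replicate 2 and the TEST tumors mostly below, and Inhba in TEST replicate 1 (−2.80) is the lowest cell.

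Markers of cell types were read beside this pattern. The 5 luminal epithelial genes (Krt8, Krt18, Epcam, Cdh1, Elf5) were all higher in TEST, 2 at an unadjusted p under 0.05 (3.15% of all tested genes) and 0 at an adjusted p of 0.05 by edgeR, with summed FPKM of 944, 2160 and 902 in CONTROL and 2560, 2350 and 2710 in TEST tumors. Here too CONTROL replicate 2 stood with the TEST tumors. Krt18, the most abundant of them, had 395, 913 and 335 FPKM in CONTROL and 1058, 997 and 1206 in TEST. The 5 skeletal muscle genes were also all higher in TEST, 0 of them at an unadjusted p under 0.05, with summed FPKM of 4.35, 90.5 and 2.55 against 416, 96.6 and 53.3. Acta1 had the highest mean over 6 tumors, at 3.68, 39.8 and 1.27 against 111, 42.2 and 29.1 FPKM, though Tnnt3 was higher in TEST replicate 1 (123). Ckm had 0 counts in CONTROL replicate 1, where Myh4, Mylpf and Tnnt3 had 3, 2 and 3 counts. CONTROL replicate 2 was thus near the TEST tumors in both lists, as it was for Tgfb2, Tgfbr2, Tgfbr3 and Smad7. The part of luminal and muscle cells in the differences of the TGF-beta genes was not tested.

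The other cell type lists are given by tumor in the same way. The gene named as most abundant or as leading a list had its highest mean FPKM over 6 tumors, and was not always highest in each tumor. By log2 fold change, 4 of 5 genes were lower in TEST in each of the basal, pericyte and macrophage lists, 2 of 5 in the fibroblast and endothelial lists, 1 of 3 tested in the platelet and T cell lists, and 0 of 2 tested in the adipocyte list. At an unadjusted p under 0.05, 1 of 5 basal genes was lower and both adipocyte genes that were tested (2 of 5) were higher, beside 5.26% and 3.15% of all tested genes. No tested gene of the other lists in this paragraph was past it, and of the T cell and the platelet genes 3 of 5 each were tested. Summed FPKM of 5 fibroblast genes was 104, 186 and 159 in CONTROL and 68.3, 340 and 128 in TEST tumors, with Col3a1 the most abundant at 47.8 to 232. Endothelial genes summed to 36.6, 29.3 and 36.7 against 31.9, 36.6 and 41.8, with Pecam1 the most abundant, and macrophage genes to 208, 133 and 270 against 122, 285 and 171, with C1qa the most abundant and the 1 gene of its list that was higher in TEST. The macrophage gene Cd68, named after its values were seen, was at 96.5, 24.6 and 59.6 against 20.2, 35.9 and 29.8 FPKM. Its CONTROL replicates 1 and 3 were high, as for most of the 10 genes. Adgre1 (5.80, 4.16 and 8.42 against 2.71, 4.83 and 5.41) also had CONTROL replicates 1 and 3 above all TEST tumors. Csf1r (17.2, 15.6 and 34.6 against 14.5, 18.3 and 16.3) and Mrc1 (4.14, 3.00 and 14.1 against 5.44, 5.76 and 2.12) did not. Nor did C1qa (84.5, 86.1 and 154 against 79.1, 221 and 118). The part of the macrophage genes in the differences of the 10 genes was not tested. Pericyte or smooth muscle genes summed to 23.4, 36.8 and 103 against 110, 37.0 and 26.6. Myh11 led them by mean (21.9), but was the highest of its list in CONTROL replicate 3 alone (71.4). Des was the highest in CONTROL replicate 2 (14.8) and in the TEST tumors (56.7, 20.1 and 9.43). The 5 basal or myoepithelial genes summed to 223, 157 and 992 against 346, 245 and 211, led by Acta2, which is also on the target list. Platelet genes summed to 10.1, 1.71 and 7.01 against 2.66, 9.56 and 3.12, led by Pf4, with 0 counts of Gp9 in all CONTROL tumors and TEST replicate 1 and of Ppbp in TEST replicate 1. T cell genes summed to 3.08, 4.28 and 5.22 against 2.78, 5.67 and 3.75, led by Foxp3. Adipocyte genes summed to 36.9, 17.8 and 30.8 against 314, 82.2 and 22.9, led by Fabp4, with 0 counts of Plin1 in CONTROL replicate 1 and TEST replicate 3 and of Lep in CONTROL replicate 1 and TEST replicates 2 and 3. No gene of the 10 lists reached an adjusted p of 0.05 by edgeR.

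The wider pathway was read from a list of 72 genes, also chosen with earlier results known, of which 64 were tested. Of these, 46 were lower and 18 higher in TEST, with a median log2 fold change of −0.30, and 0 reached an adjusted p of 0.05 by edgeR's quasi-likelihood test. At an unadjusted p under 0.05, 13 of the 64 were lower and 0 higher, beside 5.26% and 3.15% of all tested genes. Gdf11 is among the 13, though it met the filter on low counts through the CONTROL group, in which it was high. When each tumor was left out, the number in either direction ran from 5 without CONTROL replicate 1 to 19 without CONTROL replicate 2. At that p, 2.59% and 9.06% of all tested genes were then lower. DESeq2 called 2 of the list, Ltbp1 and Gdf11, among its 313 of 13706 genes, and Gdf11 had few counts in TEST. Without the 10 genes above, 37 of 54 were lower, 8 of them at an unadjusted p under 0.05, with a median of −0.28. In CPM, 6 of the 64 were lower without overlap and 2 were higher without overlap, beside 5.86% and 6.12% of all tested genes. Gdf11 is also among the 8 above and among these 6.

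By role, all 9 tested ligand genes had a log2 fold change below 0, with a median of −0.86, where 48.5% of all tested genes were lower. Of the 9, 3 were at an unadjusted p under 0.05, among them Gdf11, whose low counts in TEST are given below. Inhba, at −0.02 (SE 1.00), changed sign when single tumors were left out. Gdf11, a ligand related to myostatin that signals to Smad2 and Smad3, was at 2.16, 2.73 and 2.19 FPKM in CONTROL and 0.40, 0.71 and 0.23 in TEST tumors. Its groups did not overlap, CONTROL replicate 2 was its highest tumor, and its log2 fold change was −2.37 (SE 0.58, adjusted p = 0.394, edgeR quasi-likelihood with Benjamini-Hochberg adjustment). Gdf11 had 36, 44 and 36 counts in CONTROL and 6, 11 and 4 in TEST tumors, so it met the filter on low counts through the group in which it was high, and its difference is no support for the list. Of the 12 latency and activation genes 9 were lower. Ltbp2, a matrix protein related to Ltbp1 that does not bind latent TGF-beta, was at 20.6, 12.0 and 15.2 against 9.62, 6.84 and 4.96 FPKM, without overlap (log2 fold change −1.17, SE 0.35). Ltbp4, which does bind it, was higher without overlap, at 1.09, 2.21 and 2.27 against 3.94, 2.56 and 2.86 FPKM (log2 fold change 0.76, SE 0.37), and was named after its values were seen.

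Of 7 tested receptor genes, 3 were lower and 4 higher. Eng, the endothelial co-receptor endoglin, had 66.2, 8.86 and 34.6 FPKM in CONTROL and 5.29, 10.3 and 10.7 in TEST tumors, with CONTROL replicate 2 again among the TEST tumors (log2 fold change −2.08, SE 0.70). Of 6 extracellular inhibitors, 5 were lower, among them Vasn, which binds TGF-beta, with a log2 fold change of −1.20 (SE 0.40). The matrix proteoglycan Dcn was higher, with a log2 fold change of 1.31 (SE 0.68). Of 4 Smads and adaptors, Smad2 and the common partner Smad4 had log2 fold changes of 0.05 (SE 0.28) and 0.00 (SE 0.27), beside −0.60 for Smad3. Zfyve9, which anchors Smads for the receptor, had one of 0.59 (SE 0.46). It is counted as without overlap in CPM, where CONTROL replicate 1 and TEST replicate 2 were equal after rounding, and in FPKM its groups overlapped.

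Intracellular inhibitors were mixed, with 7 of 12 lower, and Tgif2, a repressor that binds Smads, was at −1.84 (SE 0.63) on the log2 scale beside Smad7. Pmepa1 had the highest log2 fold change of the 12, at 0.62 (SE 0.37). Among 14 target genes 12 were lower, with a median log2 fold change of −0.45. The 2 higher in TEST were Col1a1 (log2 fold change 0.45, SE 0.93) and Tgfbi (0.01, SE 0.41). Among the lower ones, Ldlrad4 (−0.04, SE 0.36) and Tagln (−0.05, SE 0.91) were near 0. Fn1, which encodes fibronectin, was at 223, 45.8 and 76.2 FPKM in CONTROL and 14.5, 26.1 and 43.4 in TEST tumors, without overlap (log2 fold change −2.07, SE 0.70). Snai1, a transcription factor of epithelial to mesenchymal transition, had 36.9, 3.63 and 13.99 against 2.08, 5.50 and 6.06 FPKM, where CONTROL replicate 2 lay among the TEST tumors (log2 fold change −2.02, SE 0.83). RNA of Cdkn1a, which encodes the cell cycle inhibitor p21, was at 287, 91.8 and 498 against 148, 94.6 and 109.7 FPKM, also with CONTROL replicate 2 low (log2 fold change −1.32, SE 0.56), and its protein was not analysed here. In edgeR (quasi-likelihood, Benjamini-Hochberg), the adjusted p of the genes named by role was at least 0.394.

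**Figure D5:**
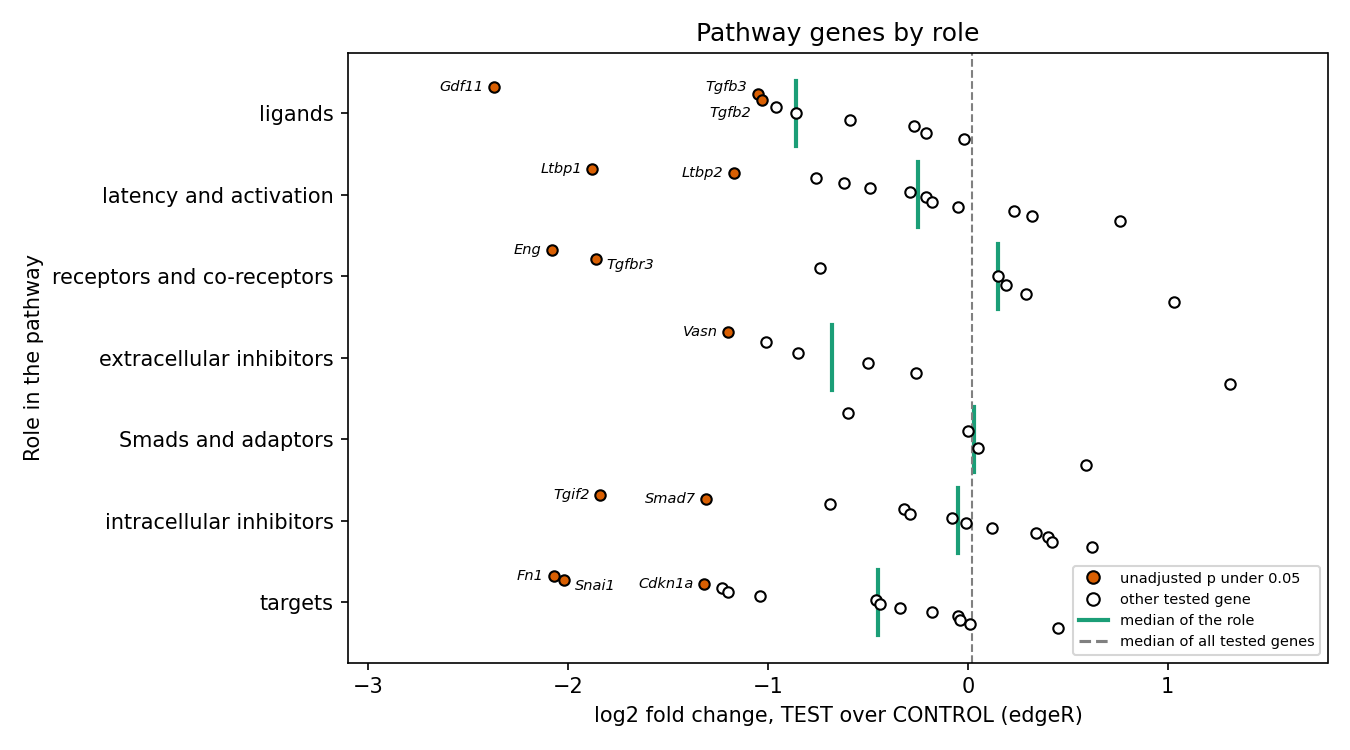
Log2 fold change, TEST over CONTROL, of each of the 64 tested pathway genes by role, with genes at an unadjusted p under 0.05 filled and named, the median of each role as a green bar and the median of all tested genes (0.02) as a dashed line. Ligand genes have a median of −0.86 and receptor genes one of 0.15, and all 13 filled genes lie below 0.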

How the data were processed

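RNA of 6 breast tumors, 3 TEST and 3 CONTROL, was analyzed from gene tables. Expected counts deposited by the authors are estimates of the reads of each gene and were not normalized. The deposited FPKM values were normalized by the authors for gene length and depth. The submitters' processing notes name Bowtie, BWA, RSEM and the mm10 genome. Versions, annotation release and strand of counting are not given in the sources used here. A gene not listed for a tumor was set to 0.

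NCBI Gene identifiers were matched to GRCm38 names, 18400 by identifier and 7 by transcript, and 53 had no match. Inhbc, Nodal and Tdgf1 of the pathway list were not analysed here. After rounding to whole numbers, expected counts were tested in R 4.3.3 with edgeR 4.0.16 (filterByExpr, TMM, quasi-likelihood test, Benjamini-Hochberg over 13706 genes). The SE is the log2 fold change divided by the root of the F statistic. Exact permutation tests were two-sided on mean log2(CPM + 0.5). Both edgeR and DESeq2 were tested on simulated data. Alternatives were DESeq2 1.42.0, limma 3.58.1 on log2(FPKM + 1) and log2(FPKM + 0.1) for a mean FPKM of at least 1, RLE or total count scaling, other filters on low counts, the replicate number as a block, and leaving out each tumor. Promoters are RefSeq sequences on GRCm38.

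Named genes were the 10 genes, in each role those at an unadjusted p under 0.05 and the 2 with the largest absolute log2 fold change (with Ltbp4, Smad2 and Smad4 added after their values were seen), label checks, the 5 genes nearest the most variable of the 10, and from each marker list the most abundant gene and those at 0 counts. The other macrophage genes, Des, Pmepa1, Col1a1, Tgfbi, Ldlrad4 and Tagln were also named, after their values were seen. The members and lists were chosen with earlier results of these data known. A level of 3 counts was taken as the floor, and intervals cover counting error only.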

Additional observations from a re-analysis of the deposited data

How the results depend on the processing

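Of the 10 genes, 8 or 9 were lower in TEST under every alternative run, and no log2 fold change other than that of Inhba changed sign. Leaving out each tumor took Inhba from −0.94 to 0.65, and Inhba did not pass a filter of 10 counts in every tumor. DESeq2 called 1 of the 10 (Ltbp1, adjusted p = 0.0199), 2 of the pathway list (Ltbp1 and Gdf11) and 313 of all tested genes, where edgeR called 0 of each, and limma on log2(FPKM + 1) called 1 of all tested genes, Gpx2, which was named after its values were seen. The number of the 10 lower at an unadjusted p under 0.05, 5 by edgeR, was 2 with limma on log2(FPKM + 1) and 2 with log2(FPKM + 0.1). It ran from 2 to 6 when each tumor was left out. The shares of all tested genes were 5.26% by edgeR, 4.24% and 4.16% with limma, and from 2.59% to 9.06% when each tumor was left out. The number of pathway genes at an unadjusted p under 0.05 in either direction was 13 by edgeR, 8 and 8 with limma on the same scales, and from 5 to 19 when each tumor was left out, the lowest without CONTROL replicate 1 and the highest without CONTROL replicate 2. When each tumor was left out, the number of the 10 without overlap ran from 3 to 8, and the number of all genes that edgeR called from 0 to 182, both highest without CONTROL replicate 2 among these fits. The cause was not tested. Ltbp1 and Tgfb3 were at an unadjusted p under 0.05 in 14 of 14 alternatives, with adjusted p from 0.0199 to 0.996 and from 0.0685 to 1.0. With the replicate block in edgeR, 4 of the 10 and 10 of the pathway list were at an unadjusted p under 0.05 and 0 genes were called. Of all tested genes, 4.73% were lower at that p with the block. Same-numbered tumors did not deviate together (r = −0.025, 0.121 and −0.137 across genes, which are not independent), and 2 of 6 tumors correlated best with the tumor of their own number, so the numbers do not pair them. Depth limits Inhba in TEST replicate 1 (3 counts), Tslp (2 to 12 counts in every tumor), Gdf11 in TEST replicates 1 and 3 (6 and 4 counts) and the muscle genes Myh4, Ckm, Mylpf and Tnnt3 in CONTROL replicates 1 and 3 (0 to 10 counts), while Smad7 had at least 74 counts in each tumor.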
